A study of Homo sapiens with 19 samples.

Results

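ENAH, EVL and VASP are the 3 genes of the human Ena/VASP family. They were followed here through every annotated splice junction (GENCODE 29) that belongs to 1 of the 3 names, which makes them 3 of the 22760 genes with reads on annotated junctions in 19 libraries of human cell lines. ENAH, on the minus strand of chromosome 1, had 20 of 22 annotated introns with reads. EVL, on the plus strand of chromosome 14, had 23 of 34, and VASP, on the plus strand of chromosome 19, had 18 of 19. The 3 genes hold 11 annotated cassette exons of up to 1000 nt, 4 of which passed the filter for a test, namely ENAH exons of 63 and 57 nt and EVL exons of 63 and 76 nt.

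RNA depleted of ribosomal RNA was sequenced from the melanoma line A375 (total, nuclear and cytoplasmic RNA), the embryonic kidney line HEK293 and the embryonic stem cell line HUES66 without treatment, with 1 library each. Another 14 HUES66 libraries, controls included, all received 1 ug/ml doxycycline and were either control, RBFOX2 total knockdown, N-short knockdown or N-long knockdown, where N-short and N-long are 2 isoforms of the splicing factor RBFOX2. Doxycycline libraries fall into 4 sets that differ in time and library series: 24 hr replicate 1 (total, N-short and N-long knockdown, no control), 24 hr replicate 2 (control, N-short and N-long knockdown), 48 hr and 96 hr (1 library of each of the 4 arms). The labels do not say that libraries of an arm came from separate cultures, so p-values measure the spread between these libraries, which may be technical.

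Ena/VASP proteins bind growing barbed ends of actin filaments, where they speed elongation and hold off capping proteins. An EVH1 domain at the amino end docks onto proline-rich ligands such as zyxin and lamellipodin, a proline-rich middle binds profilin, and an EVH2 domain at the carboxyl end binds actin and joins the proteins into tetramers. ENAH, also called Mena, is known for alternative exons: a short exon near the EVH2 domain marks epithelial forms, and another, named INV, marks invasive tumour cells, while EVL has an isoform with an insert called EVL-I. RBFOX2 binds GCATG motifs in RNA, mostly in introns next to alternative exons.

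Sequences of the 3 coding cassette exons around which most of the values turn are shown with 20 nt of the neighbouring exon on both sides, read from GENCODE 29 transcripts. Capitals mark the cassette exon. All 3 have lengths that keep the reading frame, so that skipping or inclusion changes the protein by an insert.
ENAH 63 nt exon, chr1:225504991-225505053, minus strand, GRCh38: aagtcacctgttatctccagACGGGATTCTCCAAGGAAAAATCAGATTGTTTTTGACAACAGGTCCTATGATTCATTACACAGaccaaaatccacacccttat
ENAH 57 nt exon, chr1:225535507-225535563, minus strand, GRCh38: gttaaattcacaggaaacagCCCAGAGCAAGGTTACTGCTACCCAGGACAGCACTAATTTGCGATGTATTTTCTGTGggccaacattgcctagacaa
EVL 63 nt exon, chr14:100137740-100137802, plus strand, GRCh38: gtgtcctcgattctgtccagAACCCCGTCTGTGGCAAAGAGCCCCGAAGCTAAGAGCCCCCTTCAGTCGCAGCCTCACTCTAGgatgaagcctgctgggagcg
The 63 nt exons of ENAH and EVL have the same length and both follow a 67 nt exon. Aligned without gaps, they are identical at 17 of 63 positions (27.0%), while the 67 nt exons before them are identical at 32 of 67 (47.8%). The penultimate exon of 58 nt was more alike between all 3 genes, with 60.3% identity between ENAH and EVL, 63.8% between ENAH and VASP and 70.7% between EVL and VASP. The motif GCATG, searched on the RNA strand alone, is in none of these 3 cassette exons. It is in 645 of the 6534 cassette exons tested (9.87%) and in 80 of the 1572 tested exons of 40 to 80 nt (5.09%), and introns were not searched.

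Libraries held 6499183 to 27937149 spliced reads. RBFOX2 itself was at 126 to 134 normalised CPM (gene reads scaled to a common library total) in the 3 controls, at 114 to 124 in N-short knockdown, at 77.8 to 90.8 in N-long knockdown and at 50.6 to 81.7 in total knockdown. Against control, its log2 fold change was -0.82 (SE 0.0794, adjusted p = 8.63e-09, edgeR quasi-likelihood test) in total knockdown, -0.57 (adjusted p = 2.73e-05) in N-long knockdown and -0.06 (adjusted p = 0.999) in N-short knockdown. With DESeq2 the N-long value was -0.58 (adjusted p = 0.0683), and without the term for library set it was -0.61 (adjusted p = 0.460, edgeR). Reads of the N-short and N-long isoforms were not counted apart here. How far each isoform fell is thus not shown, so that a lack of calls in N-short knockdown may go with a weak knockdown. All 6 listed stem cell markers had reads in each of the 15 HUES66 libraries, while of 6 pigment cell markers in A375 MLANA and TYR were at 0, PMEL and DCT had 0.507 and 0.380 CPM, and SOX10 and MITF had 107 and 41.6. PMEL was higher in untreated HUES66 (50.6 CPM) and in the doxycycline libraries (36.8 to 73.1).

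Inclusion of the 63 nt exon of ENAH fell in total knockdown and, by a smaller amount, in N-long knockdown. Inclusion is the percent of inclusion reads (mean of the junctions on both sides) among inclusion and skipping reads. At 24 hr, replicate 1 gave 69.2% in N-short, 64.2% in N-long and 46.9% in total knockdown, and replicate 2 gave 76.9% in control, 76.5% in N-short and 68.1% in N-long knockdown. At 48 hr it was 83.9% in control, 84.5% in N-short, 69.5% in N-long and 49.6% in total knockdown. At 96 hr it was 72.1% in control, 75.6% in N-short, 61.2% in N-long and 48.0% in total knockdown. Among the HUES66 libraries the 3 of total knockdown lie below all others, between 46.9% and 49.6%, and N-long knockdown is below N-short knockdown in all 4 sets. Across sets the arms come close, since N-short knockdown of 24 hr replicate 1 (69.2%) is below N-long knockdown at 48 hr (69.5%).

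**Figure D1:**
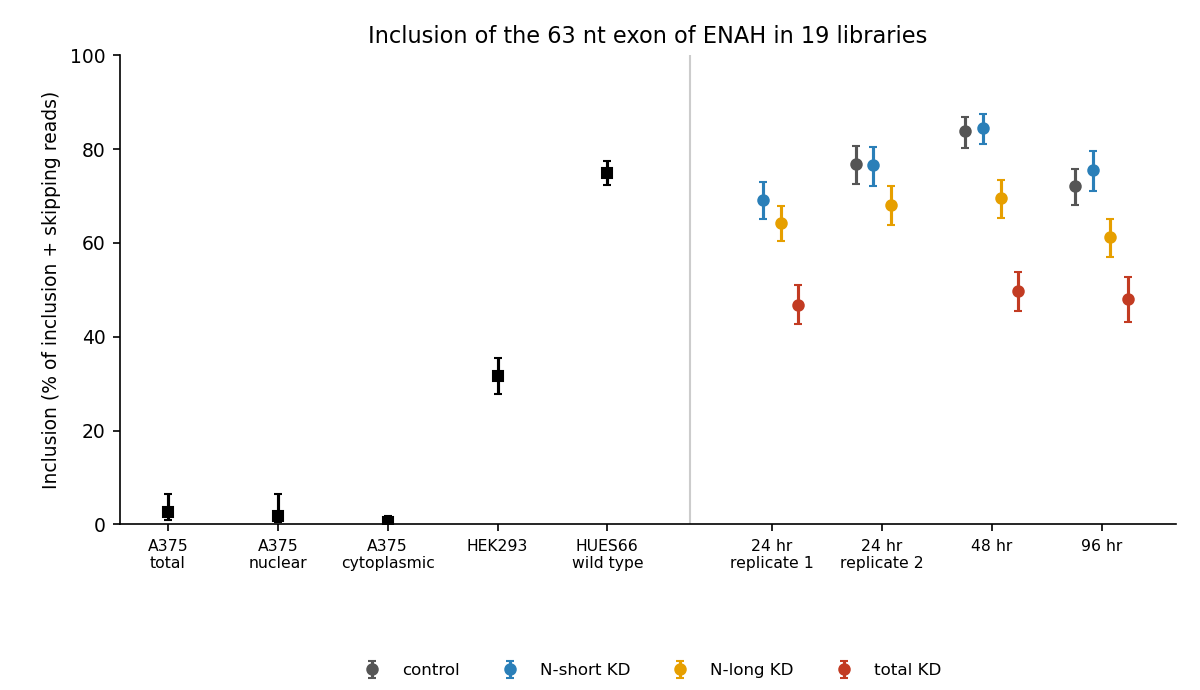
Inclusion of the 63 nt exon of ENAH in percent (y axis) in each of 19 libraries (x axis, by cell line or fraction and by time of doxycycline), with bars for the 95% Wilson interval of the read counts. Total knockdown libraries sit at 46.9% to 49.6%, below the controls at 72.1% to 83.9%, and the A375 libraries sit at 0.493% to 2.56%.

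In total knockdown inclusion fell by 29.2 ± 7.16 percentage points (SD of within-set differences, n = 2 sets, lower in 2 of 2), a log2 odds ratio of -1.82 (SE 0.139, adjusted p = 5.49e-15, edgeR over 6534 exons). In N-long knockdown it fell by 11.3 ± 2.81 points (n = 3, lower in 3 of 3), a log2 odds ratio of -0.77 (SE 0.131, adjusted p = 0.000105, edgeR). N-short knockdown differed from control by 1.28 ± 1.98 points (n = 3), with a log2 odds ratio of -0.03 (SE 0.141, adjusted p = 1.00, edgeR). This exon is thus 1 of the 4 tested family exons called in total knockdown, where 1.38% of all tested exons were called, and 1 of 4 in N-long knockdown, where 0.597% were called. None of the 4 was called in N-short knockdown (background 0.0153%), also none at an unadjusted p below 0.05 or with limma.

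The arms were also set against each other. N-long knockdown was lower than N-short knockdown by 10.7 ± 4.81 points (n = 4, lower in 4 of 4), a log2 odds ratio of -0.75 (SE 0.117, adjusted p = 6.46e-05, edgeR, background 0.429%). Total knockdown was lower than N-long knockdown by 16.8 ± 3.36 points (n = 3, lower in 3 of 3), a log2 odds ratio of -1.05 (SE 0.117, adjusted p = 1.49e-08, edgeR, background 0.52%). By p-value the exon ranked 2 of 6534 in total knockdown, 14 in N-long knockdown, 4 in N-long against N-short and 1 in total against N-long knockdown. With limma on log2 ratios of inclusion to skipping reads, the total knockdown call held at an adjusted p of 0.0212, while adjusted p was 0.631 for N-long against control, 0.602 for N-long against N-short and 0.388 for total against N-long, at log2 odds ratios of -0.79, -0.79 and -1.04. Over all exons, limma called 24, 1, 2 and 0 in these 4 comparisons where edgeR called 90, 39, 28 and 34.

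The authors' deposited rMATS tables gave inclusion differences of this exon, control minus knockdown on a scale of -1 to 1. For total knockdown the authors' deposited tables gave 0.294 at 24 hr, 0.345 at 48 hr and 0.253 at 96 hr. The authors' adjusted p (rMATS) was 1.44e-11, 2.98e-12 and 9.69e-05. No 24 hr set here holds both a doxycycline control and total knockdown, so the authors' 24 hr value may compare less matched libraries than the later ones. For N-long knockdown the authors' deposited tables gave 0.098, 0.144 and 0.121 at these times with adjusted p of 0.299, 0.103 and 0.564, and a further 24 hr row with other flanking exons gave 0.006 at an adjusted p of 1. For N-short knockdown the authors' deposited tables gave 0.03, -0.007 and -0.029 with adjusted p of 1, 1 and 0.959.

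Junction reads show where along the genes this happened. Of 18 tested ENAH junctions, 3 passed in total knockdown (0.461% of 120834 junctions did), and all 3 touch the 63 nt exon. The skipping junction, 74 to 304 reads per doxycycline library, rose by 1.16 on the log2 scale (SE 0.116, adjusted p = 2.45e-14, edgeR). Both inclusion junctions fell, by 0.62 (SE 0.0831, adjusted p = 1.53e-08) at the 3' side and by 0.68 (SE 0.0844, adjusted p = 6.99e-10) at the 5' side. The skipping junction was the 1 ENAH junction called in N-long knockdown, at 0.61 (adjusted p = 0.000967, edgeR, background 0.043%), and in N-long against N-short knockdown, at 0.64 (adjusted p = 3.25e-05, background 0.0306%). With time alone in place of the set, 0 ENAH junctions were called in either of these comparisons. In total against N-long knockdown the same 3 junctions were called (background 0.391%). In N-short knockdown no ENAH junction had an unadjusted p below 0.05 (edgeR, background 0.0108%).

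**Figure D2:**
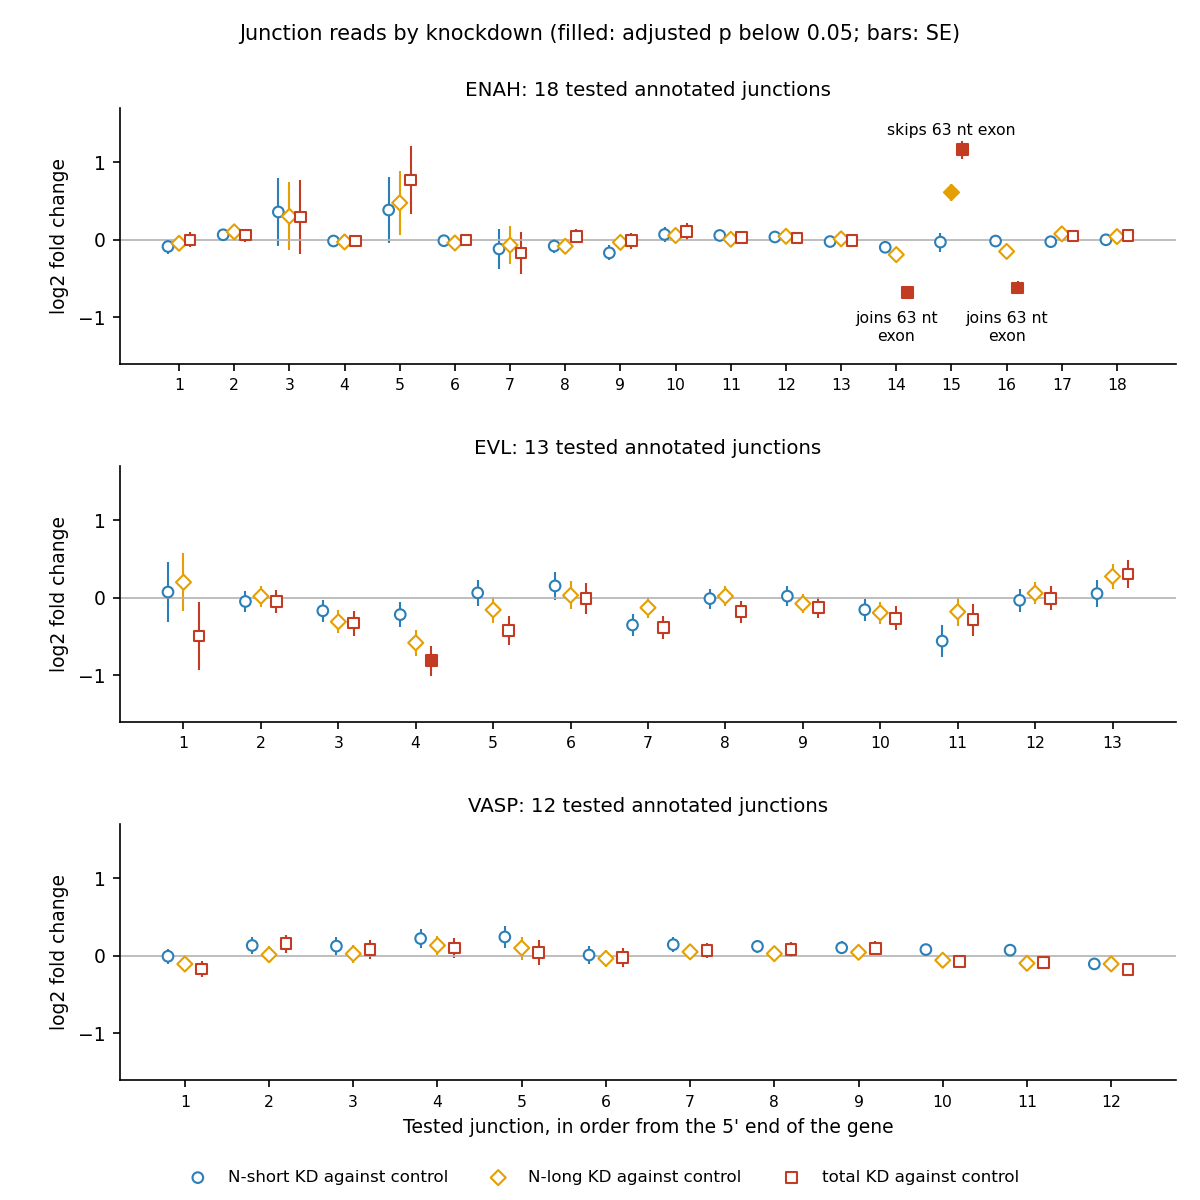
Log2 fold change of reads (y axis, bars for SE) of each tested annotated junction of ENAH, EVL and VASP (x axis, in order from the 5' end of the gene) in 3 knockdowns against control, filled where the adjusted p is below 0.05. In ENAH the skipping junction of the 63 nt exon lies at 1.16 in total knockdown and at 0.61 in N-long knockdown, and its inclusion junctions lie at -0.62 and -0.68 in total knockdown.

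Across 96 against 48 hr the 63 nt exon fell by 7.70 ± 4.29 points (n = 4 arms, lower in 4 of 4), a log2 odds ratio of -0.55 (SE 0.117, adjusted p = 0.000386, edgeR, with 17.3% of exons called). The change was -11.8 points in the control, -8.96 in N-short, -8.35 in N-long and -1.68 in total knockdown. Time and culture cannot be told apart here, and with limma the adjusted p was 0.112. Summed reads of 6 mesenchymal markers moved at the same time, from 235 to 260 CPM at 48 hr to 471 to 847 at 96 hr. VIM made up most of that sum, at 138 to 767 CPM over the doxycycline libraries. CDH2 was at 60.2 to 101 there, and ZEB1, ZEB2, SNAI2 and TWIST1 at 1.01 or less. Summed reads of 6 epithelial markers were 953 to 1019 CPM at 48 hr and 985 to 1087 at 96 hr. ESRP1, an epithelial marker among them, rose (log2 fold change 0.29, adjusted p = 1.81e-09, edgeR, with 59.6% of genes called). The part of these genes in the result was not tested.

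Between lines the 63 nt exon ranged from nearly absent to mostly included. It was included in 2.56% of reads in A375 (4 of 156 reads, 95% Wilson interval 1.00% to 6.41%), in 31.6% in HEK293 (27.9% to 35.5%) and in 75.0% in untreated HUES66 (72.3% to 77.5%). These intervals, like all intervals here, cover counting error alone, and with 1 library per line no test between lines was made. The A375 fractions gave 1.85% in nuclear RNA (2 of 108 reads) and 0.493% in cytoplasmic RNA (2 of 406 reads), and their intervals overlap. ESRP1 and ESRP2, which encode epithelial splicing regulators, were at 301 and 44.0 CPM in HUES66, at 8.01 and 26.6 in HEK293 and at 0.127 and 0.254 in A375. The 6 epithelial markers, ESRP1 and ESRP2 among them, summed to 1013, 273 and 0.380 CPM in that order of lines. In HEK293 EPCAM alone gave 232 CPM of the 273, beside 6.34 for CDH1, 0.222 for GRHL2 and 0 for RAB25. RBFOX2 had the same order, with 127 CPM in HUES66, 105 in HEK293 and 83.4 in A375. The 6 mesenchymal markers ran the other way, with sums of 411, 1701 and 2533 CPM, of which VIM gave 339, 1338 and 2233. The part of RBFOX2 and of these markers in the order of inclusion was not tested. Neither ESRP gene passed in a knockdown comparison, the nearest being ESRP2 in total knockdown (log2 fold change 0.23, adjusted p = 0.0844, edgeR, and 0.0442 with untreated HUES66 as control of 24 hr replicate 1).

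Among 4868 other exons with enough reads in all 14 doxycycline libraries, the 5 whose inclusion followed the ENAH exon most closely were an 18 nt exon of DST (Pearson r 0.949), a 45 nt exon of MYO18A (0.946), a 63 nt exon of MPRIP (0.943), a 24 nt exon of PICALM (0.921) and a 215 nt exon of FAM126A (0.921). DST encodes dystonin, which links the cytoskeleton to adhesions, MYO18A an unconventional myosin, MPRIP a binding partner of RhoA and myosin phosphatase, and PICALM a clathrin adaptor. Mean inclusion in control and total knockdown was 34.3% and 17.0% for DST, 86.8% and 51.8% for MYO18A, 96.1% and 68.1% for MPRIP, 88.1% and 66.3% for PICALM, and 98.3% and 68.6% for FAM126A. These are descriptions over 14 libraries that share their sets and arms.

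The 57 nt exon of ENAH, the INV exon, was rare in every library. Its inclusion was 1.24% to 3.24% in the 14 doxycycline libraries, 2.33% in untreated HUES66, 1.52% in HEK293 (7 of 462 reads) and, in A375, 3.87% in total (6 of 155), 1.96% in nuclear and 3.82% in cytoplasmic RNA (16 of 419 reads, 2.36% to 6.11%). The intervals of HEK293 (0.736% to 3.09%) and A375 total RNA (1.79% to 8.19%) overlap. No comparison passed: total knockdown differed from control by 0.556 ± 0.735 points (n = 2, adjusted p = 0.843, edgeR), N-long by 0.776 ± 0.861 (n = 3, adjusted p = 0.994) and N-short by 0.365 ± 0.504 (n = 3, adjusted p = 1.00). The exon had 124 inclusion reads in all over the 14 libraries. A 12 nt coding exon of ENAH in the same intron had 6 inclusion reads beside 7846 skipping reads over 19 libraries.

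EVL carries its 63 nt exon nearly always. Inclusion was 91.4% to 100% in the doxycycline libraries, with 761 inclusion and 24 skipping reads in all, and no comparison passed (adjusted p 0.690 to 1 over the 6 comparisons, edgeR). In total knockdown it differed by -5.13 ± 0.186 points (n = 2, log2 odds ratio -1.33, SE 0.973, adjusted p = 0.850). Its junctions held 20 to 106 reads per library. For this exon in total knockdown the authors' deposited tables give -0.006 at 24 hr, 0.048 at 48 hr and 0.043 at 96 hr (control minus knockdown). The authors' adjusted p (rMATS) was 0.885 at 48 hr and 0.897 at 96 hr, and the 24 hr value did not pass either. For N-short knockdown the authors' deposited tables give 0.009, 0.045 and 0.011 at these times. The 76 nt exon of EVL, noncoding in the annotation, had 26 inclusion reads in the 14 libraries. Its inclusion was 0% to 2.25% at 48 hr and 2.44% to 7.84% at 96 hr, higher at 96 hr in 4 of 4 arms (log2 odds ratio 2.59, SE 0.797, adjusted p = 0.0168, edgeR). That call was lost when the 48 hr control, the 48 hr N-long knockdown or the 96 hr N-long knockdown library was left out, at adjusted p of 0.137, 0.0536 and 0.0753.

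The other 7 cassette exons lay outside the filter. EVL's 64 nt exon had 766 inclusion and 0 skipping reads in the 14 libraries, and its 215 nt exon 0 inclusion and 1227 skipping reads. VASP's 85 nt exon was included in 98.5% of reads (1664 inclusion, 25 skipping) and its 200 nt exon in 0.102% (4 and 3899). EVL exons of 113 and 36 nt had 0 and 16 reads in all. VASP, in these libraries, thus had no cassette exon in the range that could be tested.

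**Figure D3:**
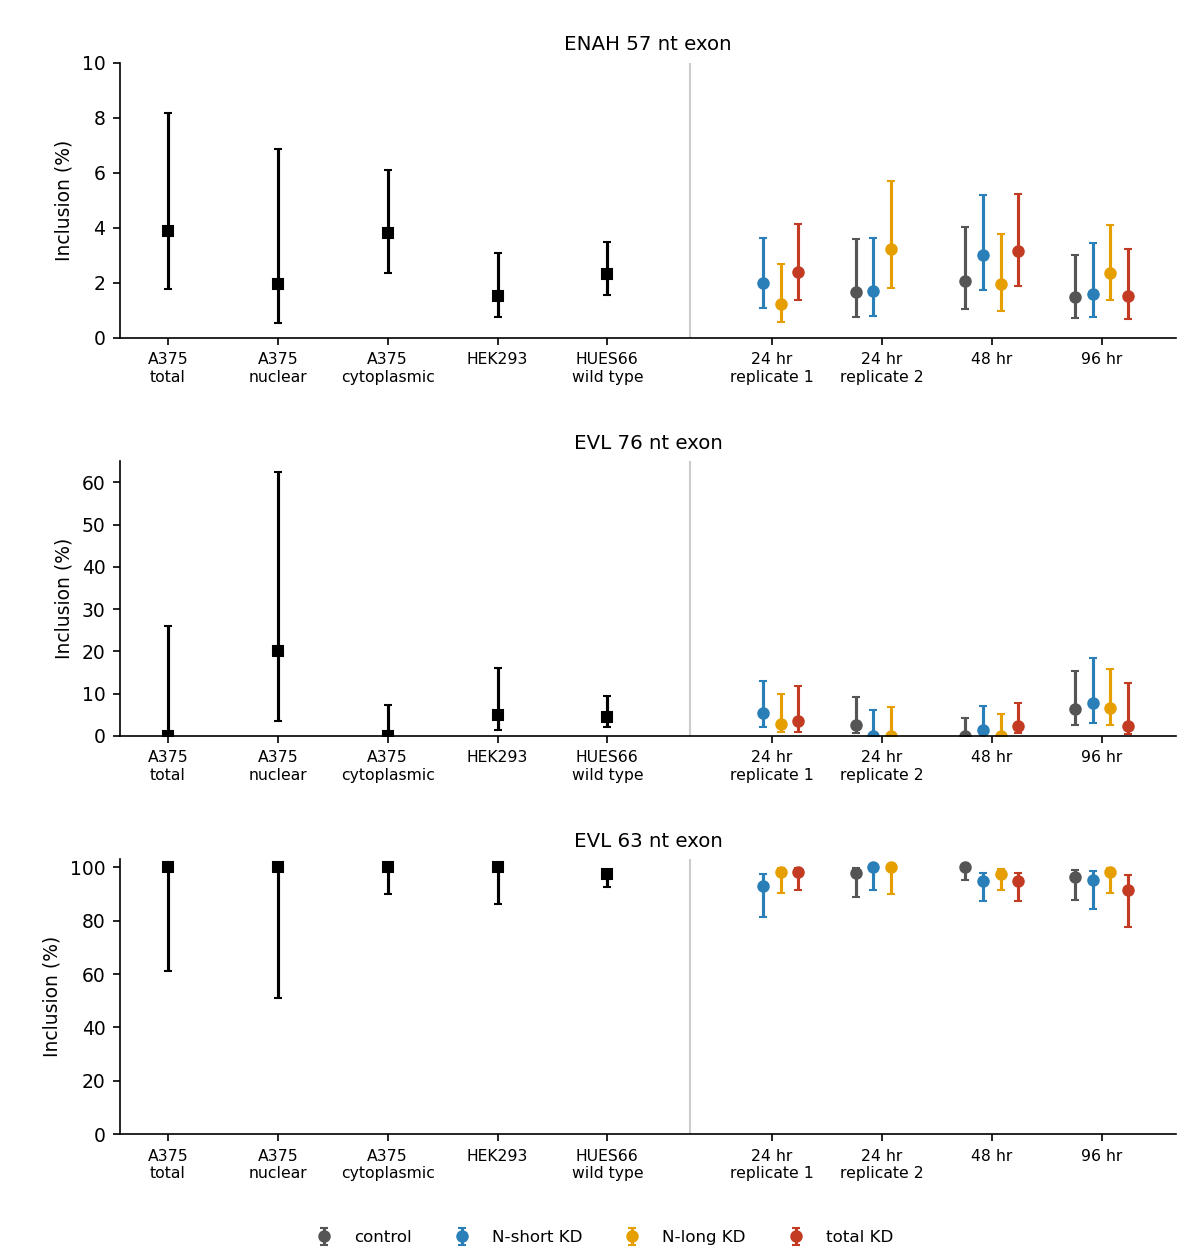
Inclusion in percent (y axis, with 95% Wilson intervals) of the 57 nt exon of ENAH and the 76 and 63 nt exons of EVL in each library (x axis). The ENAH exon stays between 1.24% and 3.87%, and the EVL 63 nt exon between 91.4% and 100% in the doxycycline libraries.

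An ENAH exon in the middle of the gene has 2 annotated acceptors, which give it 795 or 111 nt. The 111 nt form is shown because reads also skip it, with its neighbours in lower case.
ENAH 111 nt exon, chr1:225517196-225517306, minus strand, GRCh38: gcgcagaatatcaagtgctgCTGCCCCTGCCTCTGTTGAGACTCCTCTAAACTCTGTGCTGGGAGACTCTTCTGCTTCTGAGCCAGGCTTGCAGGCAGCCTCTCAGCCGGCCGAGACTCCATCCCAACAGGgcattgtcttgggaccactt
The 795 nt form, with 684 further nt, took 8.57% to 10.5% of reads at 24 hr (6 libraries), 4.62% to 6.69% at 48 hr (4) and 8.23% to 12.3% at 96 hr (4). The point values at 48 hr did not overlap those of the other times. Wilson intervals did, such as N-short at 48 hr (4.32% to 10.2%) and total knockdown at 96 hr (5.33% to 12.5%). Between 96 and 48 hr it differed by 4.43 ± 2.13 points (n = 4 arms, higher in 4 of 4), and its junction rose by 0.87 on the log2 scale (SE 0.232, adjusted p = 0.00164, edgeR). Against control it differed by -1.89 ± 0.652 points in total knockdown (n = 2), 0.510 ± 1.44 in N-long (n = 3) and 0.215 ± 1.65 in N-short knockdown (n = 3). The Wilson intervals of control and total knockdown overlapped at 48 hr (3.70% to 9.74% and 2.82% to 7.47%). They also overlapped at 96 hr (7.55% to 14.6% and 5.33% to 12.5%). It was 12.1% in A375, 12.5% in HEK293 and 9.85% in untreated HUES66.

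Around the same exon 2 junctions outside the annotation differed between lines and times. A junction that skips the exon in both its forms had 28.2% of skipping plus inclusion reads in A375 total RNA (31 of 110 reads), 32.3% in nuclear and 30.1% in cytoplasmic RNA, 18.9% in HEK293 and 1.42% in untreated HUES66, and 0% to 2.62% in the doxycycline libraries. The HUES66 libraries thus lie below A375 and HEK293, with no overlap of the Wilson intervals between untreated HUES66 (0.720% to 2.77%) and HEK293 (14.4% to 24.4%). The other junction ends 237 nt inside the following exon of 305 nt. Among the reads of it and of the annotated junction beside it, it took 18.8% to 23.2% in the 4 libraries of 48 hr, 5.22% to 12.5% in the other doxycycline libraries and 6.98% in untreated HUES66, and had 0 reads beside 59, 27 and 158 in the A375 fractions and 170 in HEK293. A count of 0 allows up to 3 reads. This is 5.08%, 11.1% and 1.9% in A375 total, nuclear and cytoplasmic RNA and 1.76% in HEK293. The nuclear library thus does not exclude the share of untreated HUES66. In A375 total RNA the Wilson interval (0% to 6.11%) also overlaps that of untreated HUES66 (5.04% to 9.60%). The 4 arms at 48 hr lie within a few points of each other, and by point value none of the other libraries reaches them.

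**Figure D4:**
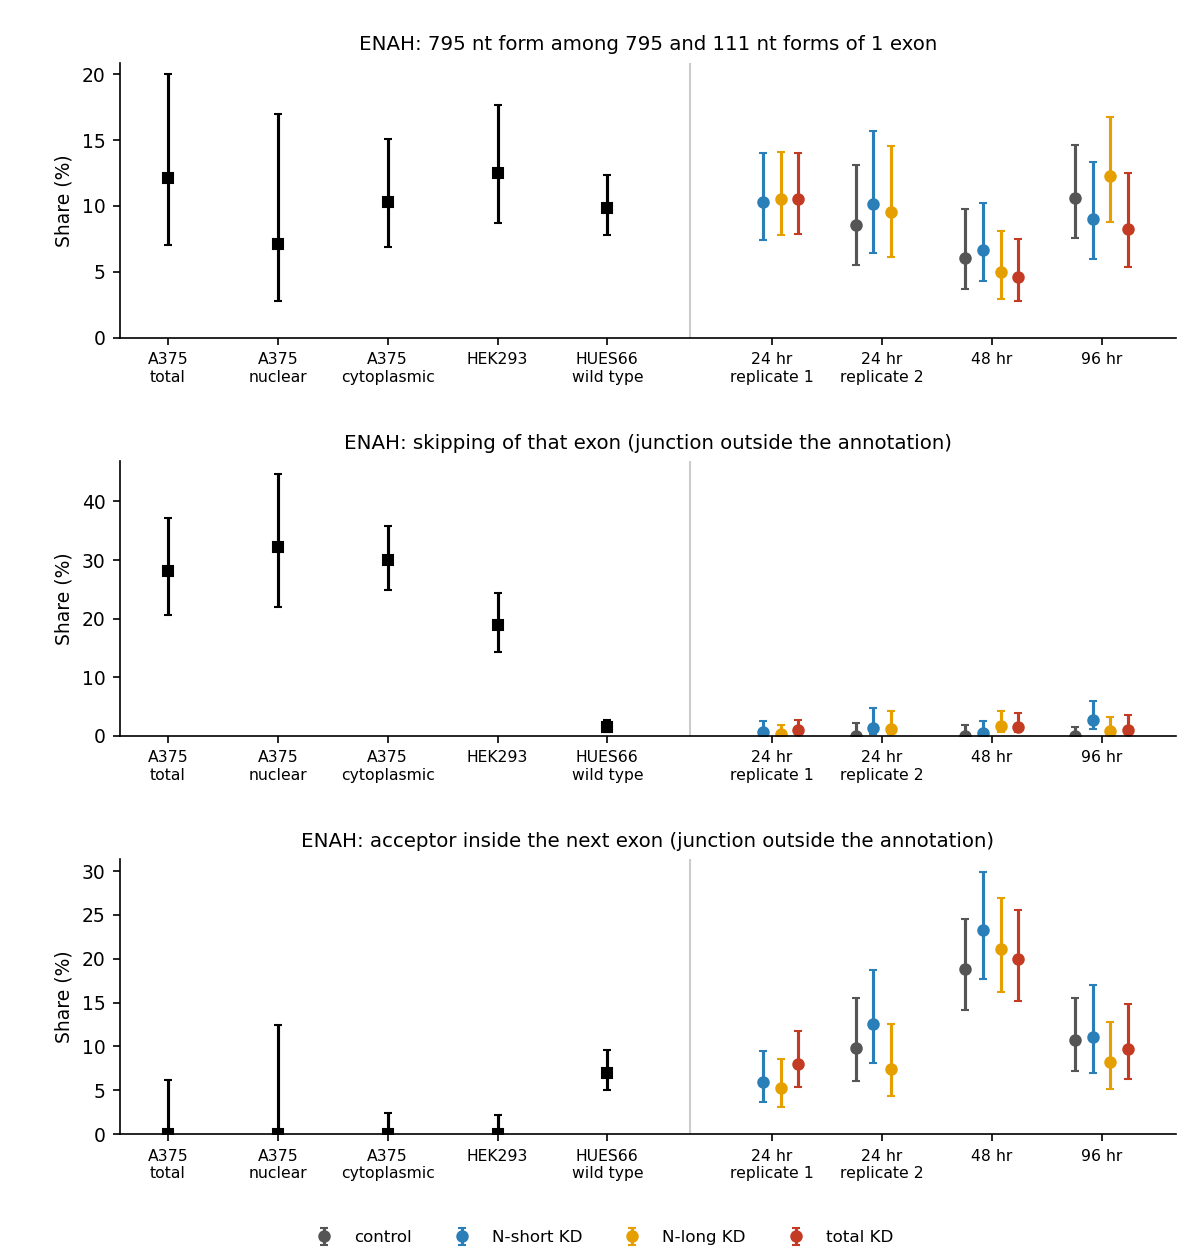
Share of reads in percent (y axis, 95% Wilson intervals) of the 795 nt form, of skipping of the 111 or 795 nt exon and of the acceptor inside the 305 nt exon of ENAH in each library (x axis). Skipping stands at 18.9% to 32.3% in HEK293 and A375 against 0% to 2.62% in HUES66 libraries, and the inner acceptor stands at 18.8% to 23.2% at 48 hr.

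VASP had 2 junctions outside the annotation that end 3 nt inside an annotated exon. The sequences show 20 nt of the preceding exon, the 3 nt left out in capitals and the next 30 nt.
VASP 101 nt exon, first bases, chr19:45522718-45522818, plus strand, GRCh38: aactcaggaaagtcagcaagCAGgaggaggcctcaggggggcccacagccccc
VASP 37 nt exon, first bases, chr19:45523841-45523877, plus strand, GRCh38: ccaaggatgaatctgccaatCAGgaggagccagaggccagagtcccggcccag
Both exons begin with the same 3 letters. The inner acceptor took 16.6% ± 3.63 (SD, n = 14) of reads at the 101 nt exon and 10.6% ± 1.83 at the 37 nt exon in the doxycycline libraries, with ranges of 9.72% to 21.0% and 7.73% to 12.9%. In A375 total RNA, HEK293 and untreated HUES66 the shares were 20.6%, 8.70% and 17.8% at the first and 4.29%, 1.79% and 8.09% at the second, where HEK293 had 2 and 1 reads.

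Gene reads are the sum of a gene's annotated junction reads, normalised with TMM factors. ENAH had 416 to 473 normalised CPM in the 3 controls, 404 to 494 in N-short, 400 to 477 in N-long and 415 to 456 in total knockdown. EVL had 58.0 to 85.8 in control, 55.4 to 80.9 in N-short, 59.1 to 78.7 in N-long and 49.4 to 77.4 in total knockdown. VASP had 174 to 207 in control, 172 to 229 in N-short, 162 to 223 in N-long and 161 to 221 in total knockdown. The arms overlap for all 3 genes. In bulk RNA, fewer cells of a type and less RNA per cell cannot be told apart.

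None of the 3 genes passed in a knockdown comparison (edgeR over 13393 genes, of which 2.26% were called in total, 0.00747% in N-short and 0.0224% in N-long knockdown, 0.0149% in N-long against N-short and 2.08% in total against N-long), and none did with DESeq2. ENAH's log2 fold change was -0.01 (SE 0.0358, adjusted p = 0.924) in total, -0.01 (SE 0.0325) in N-short and 0.00 (SE 0.0324) in N-long knockdown. VASP's was -0.01 (SE 0.0431, adjusted p = 0.944), 0.07 (SE 0.0393) and -0.02 (SE 0.0393). EVL's was -0.21 (SE 0.0648, unadjusted p = 0.00329, adjusted p = 0.0945) in total knockdown, lower in 2 of 2 sets, and -0.08 and -0.09 in N-short and N-long knockdown (adjusted p = 0.999 and 1.00). With the untreated HUES66 library as control of 24 hr replicate 1, EVL passed at -0.19 (adjusted p = 0.0473). VASP in N-long against N-short knockdown (-0.09, lower in 4 of 4 sets) and EVL in total against N-long knockdown (-0.12, lower in 3 of 3) were also at an unadjusted p below 0.05, with adjusted p of 0.915 and 0.421 (edgeR).

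Of 13 tested EVL junctions, 1 was called in total knockdown (background 0.461% of all junctions). It follows the 64 nt exon, held 28 to 70 reads per library and fell by 0.81 (SE 0.194, adjusted p = 0.0172, edgeR), beside a median of -0.27 over the 13. No EVL junction passed in N-short or N-long knockdown (background 0.0108% and 0.043%), each with 2 at an unadjusted p below 0.05. None of 12 VASP junctions passed in any of these knockdowns, beside the same background shares. In total knockdown 1 VASP junction had an unadjusted p below 0.05, and 0 did in the others.

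**Figure D5:**
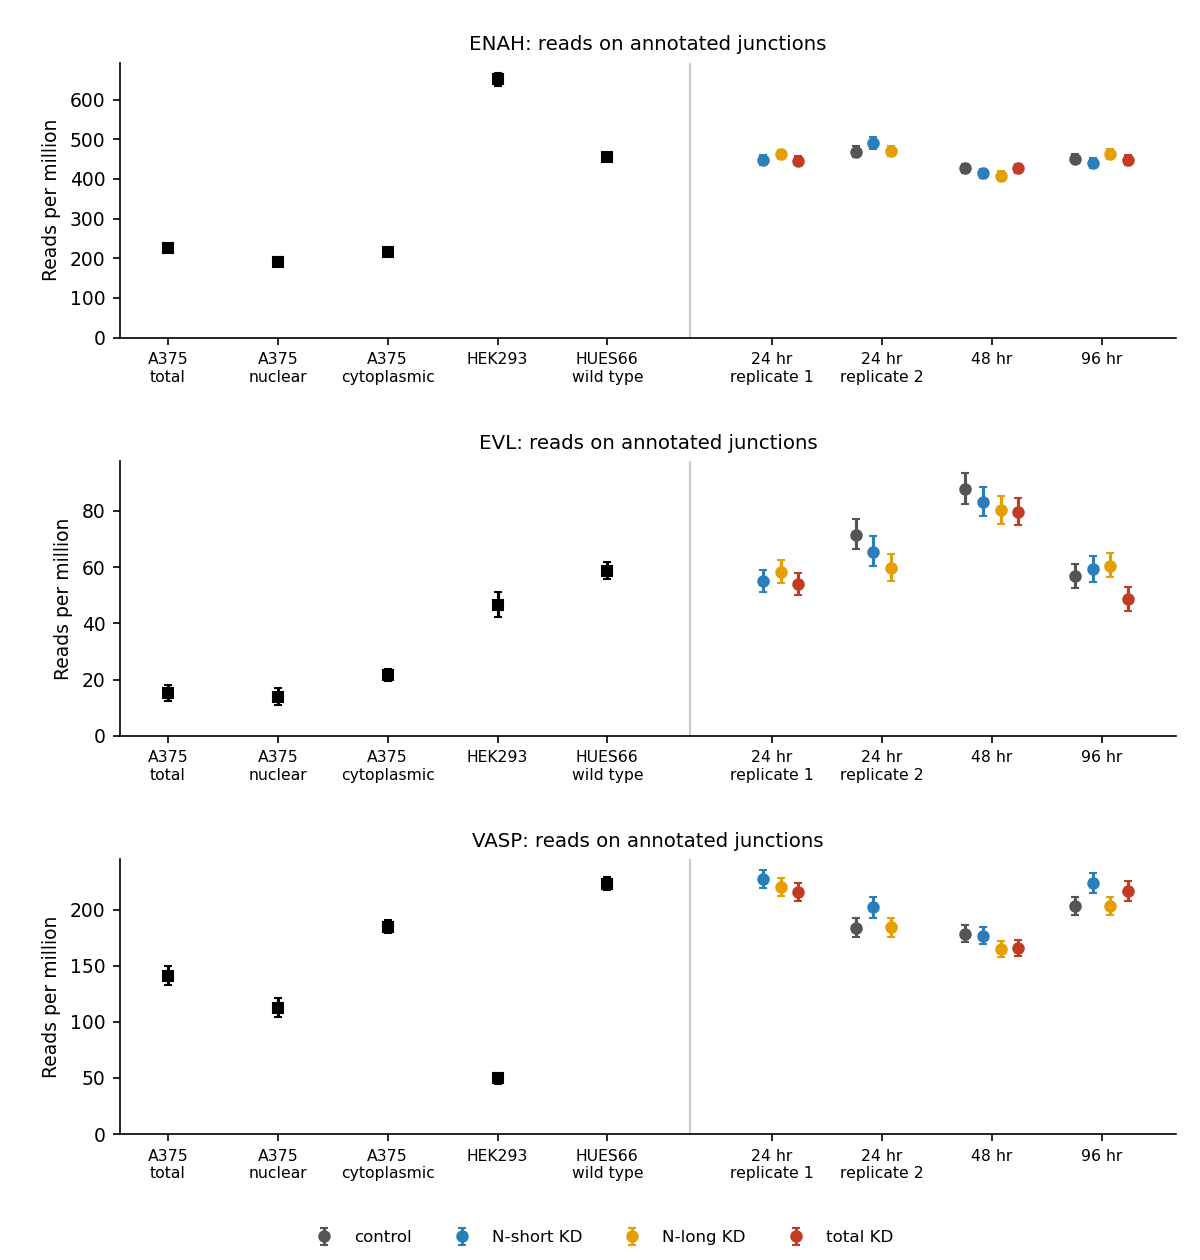
CPM (y axis, exact Poisson 95% intervals) on the annotated junctions of ENAH, EVL and VASP in each library (x axis). EVL is at 79.6 to 88.0 at 48 hr and 48.5 to 60.6 at 96 hr, and VASP is at 49.5 in HEK293 against 223 in untreated HUES66.

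All 3 genes differed between 96 and 48 hr, where 59.6% of genes were called. ENAH rose, from 400 to 416 normalised CPM at 48 hr to 443 to 467 at 96 hr (log2 fold change 0.16, SE 0.0293, adjusted p = 1.66e-05, edgeR). VASP rose more, from 161 to 174 to 205 to 225 (0.36, SE 0.0352, adjusted p = 1.04e-10). EVL fell, from 77.4 to 85.8 to 49.4 to 61.2 (-0.50, SE 0.0524, adjusted p = 5.05e-10). Each direction was the same in 4 of 4 arms, and the 48 and 96 hr libraries did not overlap for any of the 3. The 24 hr libraries had 441 to 494 for ENAH, 53.5 to 72.3 for EVL and 186 to 229 for VASP. For all 3 genes the 48 hr values lay outside the 24 hr range, while the 96 hr values overlapped it. The differences between 96 and 48 hr are thus no steady course from 24 hr on. By junction, 9 of 18 rose in ENAH, 10 of 13 fell in EVL and 10 of 12 rose in VASP, with 33.3% of all junctions called, 18.6% higher and 14.6% lower.

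To compare levels between genes, the median CPM over the introns of the principal transcript were taken, 14 introns in ENAH, 13 in EVL and 12 in VASP. On this scale HUES66 without treatment had 33.1 for ENAH, 4.66 for EVL and 19.7 for VASP, shares of 57.6%, 8.10% and 34.3% of the family. A375 had 15.9, 1.27 and 11.4 (55.7%, 4.43% and 39.9%). HEK293 had 43.7, 3.78 and 3.72 (85.3%, 7.38% and 7.27%), so that ENAH was 11.7 times VASP there and 1.39 and 1.68 times in A375 and HUES66. In the doxycycline libraries ENAH also had the highest value in each, 27.2 to 36.5, followed by VASP with 12.9 to 18.9 and EVL with 3.94 to 7.38.

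Summed over junctions, ENAH was highest in HEK293 (651 CPM), then HUES66 (457) and A375 (226). EVL was highest in HUES66 (58.7), then HEK293 (46.5) and A375 (15.1), and VASP in HUES66 (223), then A375 (141) and HEK293 (49.5). Exact Poisson intervals do not overlap between neighbours in any of these orders. HUES66 against HEK293 was 0.701 (95% interval 0.680 to 0.724) for ENAH and 4.51 (4.09 to 4.97) for VASP, which stood at the 34.1 and 89.4 percentiles of that ratio over 13620 genes.

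In A375 cells the nuclear to cytoplasmic ratio of CPM was 0.884 (0.828 to 0.943) for ENAH, 0.635 (0.497 to 0.805) for EVL and 0.610 (0.561 to 0.661) for VASP. The median over 12759 genes was 0.929, and the 3 genes stood at its 47.6, 30.7 and 28.6 percentiles. The intervals of ENAH and of VASP do not overlap, and those of EVL and VASP do.

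Genes whose proteins work beside the family were taken from a list of 35, of which 33 were tested. In total knockdown 2 were higher and 1 lower (background 1.02% and 1.24%), with a median log2 fold change of -0.03 beside -0.00 over all genes. LASP1, an actin-binding adhesion protein, rose by 0.19 (SE 0.0490, adjusted p = 0.0265, edgeR), and PFN2, a profilin that feeds actin monomers to growing ends, by 0.28 (SE 0.0737, adjusted p = 0.0317), both higher in 2 of 2 sets. FAT1, a giant cadherin that recruits Ena/VASP proteins, fell by 0.15 (SE 0.0372, adjusted p = 0.0198). With time alone in place of the set, none of the 3 passed (adjusted p 0.175 for LASP1, 0.391 for PFN2 and 0.172 for FAT1, edgeR). All 3 calls were lost as well when the 96 hr control was left out. LASP1 kept its call in 8 of the 14 fits without 1 library (also lost without the 48 hr control, total knockdown at 48 or 96 hr, N-long of 24 hr replicate 1 or N-short of replicate 2), PFN2 in 9 (also lost without the 24 or 48 hr control, total knockdown at 48 hr or N-short of 24 hr replicate 2) and FAT1 in 12 (also lost without total knockdown at 24 hr). In N-short knockdown, N-long knockdown and N-long against N-short knockdown 0 of 33 passed with edgeR or with DESeq2, and 3, 2 and 1 had an unadjusted p below 0.05. In total against N-long knockdown FAT1 (-0.14, adjusted p = 0.0133) and PRKG1, a kinase of Ena/VASP proteins (-0.29, adjusted p = 0.0202), were lower (background 1.08%). Both calls were lost with time alone in place of the set (adjusted p 0.358 for FAT1 and 0.687 for PRKG1, edgeR). FAT1 kept this call in 11 of the 14 fits without 1 library (lost without total or N-long knockdown of 24 hr replicate 1 or N-long at 48 hr). PRKG1 kept it in 10 (lost without N-long of 24 hr replicate 1, total or N-long at 48 hr or total at 96 hr).

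Between 96 and 48 hr 9 of the 33 rose and 17 fell (background 29.5% and 30%), with a median of -0.07 beside -0.01 over all genes. The 7 focal adhesion ligands divided into 2 that rose, ZYX (0.36) and LASP1 (0.24), and 5 that fell, among them PALLD (-0.68) and VCL (-0.30), the genes of palladin and vinculin. Of 5 tested membrane recruiters 3 fell, the guidance receptors ROBO2 (-1.13) and ROBO1 (-0.27) and the semaphorin SEMA6A (-0.45). Among actin and monomer partners PFN1 (0.33), CFL1 (0.23) and ACTB (0.07) rose and PFN2 (-0.35) and ACTG1 (-0.07) fell. CAPZA1 (0.20) and CAPZA2 (0.24), the alpha subunits of capping protein, rose and the beta subunit CAPZB (-0.08) fell. In the WAVE complex, which drives branched actin, ABI1 rose (0.27) and ABI2 (-0.41), CYFIP2 (-0.23), CYFIP1 (-0.17) and WASF2 (-0.15) fell, and of the kinase and ligase genes ABL1 rose (0.16) and TRIM9 (-0.81) and PRKG1 (-0.52) fell. The remaining fallers were LPP (-0.22), PXN (-0.23) and TES (-0.16), all adhesion proteins. With time alone in place of the set, 8 were called higher and 12 lower. The calls of TES (adjusted p = 0.0846), ACTB (0.451), ACTG1 (0.209), CAPZB (0.103), WASF2 (0.103) and TRIM9 (0.0828, all edgeR) were lost there. Those of TES, ACTG1 and CAPZB held in 10, 10 and 11 of the 14 fits without 1 library. TES was lost without total or N-short knockdown at 48 or 96 hr, ACTG1 without the 48 or 96 hr control, N-long at 48 hr or N-short at 96 hr, and CAPZB without the 48 or 96 hr control or total knockdown at 96 hr.

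By gene reads over the 14 doxycycline libraries, the genes most like ENAH among 13392 were DDX46 (Pearson r 0.977), SSB (0.968), DBI (0.966), EIF3A (0.965) and DPM1 (0.962). This is a description over libraries that share sets.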

How the data were processed

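The deposited junction files hold raw counts of spliced reads per junction, without normalization, for 19 libraries of ribosome-depleted RNA. STAR 2.7.1, SAMtools 1.9 and the build hg38 are named in the submitters' processing notes, and junction filters are not given in the sources used here. The authors also deposited 9 rMATS tables, whose p-value columns and inclusion differences (a unit other than counts, -1 to 1, control minus knockdown) are the authors' own, and 69 per-library columns of these tables were not used.

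Junctions were matched to GENCODE 29, which may differ from the release the authors used. Reads on annotated junctions of 1 gene name were summed per gene. Cassette exons were at most 1000 nt long with annotated inclusion and skipping junctions, and entered the test where libraries averaged 20 or more reads and inclusion over all of them lay within 2% to 98% (6534 of 38088). Genes, junctions and exons of the 14 doxycycline libraries were fitted by set and arm with the quasi-likelihood test of edgeR 4.0.16 (R 4.3.3), after filterByExpr for genes and junctions and with TMM scaling. The 3 arms of 24 hr replicate 1 have no control, so total knockdown there entered the comparison with control through the other arms. Benjamini-Hochberg adjustment ran over all features of a comparison, with a threshold of 0.05. Alternatives used DESeq2 1.42.0, limma 3.58.1 (0.5 added to both read counts) and other filters and scaling. Further ones used time alone in place of the set, which joins the 24 hr replicates, the untreated HUES66 library as control of 24 hr replicate 1, and leaving out each library. The fits were tested on simulated data.

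Libraries of a set were treated as a block because the labels place the sets in different times and library series. After the arm means were taken out, libraries of 1 set and different arms had a median correlation of 0.562 (18 pairs, 0.327 to 0.766). Libraries of different sets and arms had -0.179 (55 pairs, -0.676 to 0.511). Differences in time stay in these residuals, so the values cannot tell library series from time. A375, HEK293 and untreated HUES66 libraries were compared as CPM (of reads assigned to genes) with 95% intervals (Wilson for shares, exact Poisson for reads), which cover counting error only because reads are not independent molecules. Named were all 3 genes, all their tested exons, partner genes that passed in a comparison, and the 5 exons and 5 genes most like ENAH by Pearson r. The genes, exons and lists were chosen with earlier results of these data known.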

Additional observations from a re-analysis of the deposited data

Results flagged for a closer look

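Reads outside the annotation made up 1.53% of ENAH, 0.701% of EVL and 2.60% of VASP spliced reads over the 19 libraries. Junctions with at least 100 such reads in all, which no comparison of annotated junctions uses, numbered 6. In ENAH, the acceptor 237 nt inside the 305 nt exon had 382 reads in 15 of 19 libraries, and the skipping of the 111 or 795 nt exon had 211 reads in 16 of 19. In VASP, the acceptors 3 nt inside the 101 and the 37 nt exon had 470 and 493 reads, each in 19 of 19 libraries.

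The other 2 lie in the first intron of ENAH. A donor 368 nt into that intron had 167 reads in 17 of 19 libraries, with 1.56% to 5.43% of the reads of it and of the annotated junction in the doxycycline libraries, 4.98% in untreated HUES66, 3.85% in HEK293 and 0, 0 and 1 read in A375 total, nuclear and cytoplasmic RNA. A donor 52478 nt into the intron had 159 reads in 19 of 19 libraries, with 1.56% to 4.65% in the doxycycline libraries, 4.98% in untreated HUES66, 4.35% in A375 total RNA (3 reads) and 1.57% in HEK293. Together with a further junction of 86 reads it encloses a stretch of 155 nt, chr1:225600208-225600362 on the minus strand of GRCh38, with junctions outside GENCODE 29 on both sides, which 4351 reads skip. These junctions were counted and entered no test.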

How the results depend on the processing

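Calls for the 63 nt exon of ENAH kept their direction and their side of the threshold in all 6 comparisons with other read minimums, with the lower of the inclusion junctions, with untreated HUES66 as a control and with each library left out, except for the direction in N-short knockdown (-0.18 to 0.13 on leaving out a library). Without the replicate block, with time alone in place of the set, its total knockdown value kept its call (adjusted p = 6.11e-11). At the same log2 odds ratio of -1.82, its edgeR adjusted p was 8.87e-47, 5.49e-15 and 1.34e-10 with minimums of 10, 20 and 50 reads. The size of that p-value thus depends on which other exons enter the fit. With limma the log2 odds ratios no longer passed in N-long knockdown (-0.79), N-long against N-short (-0.79), total against N-long (-1.04) and 96 against 48 hr (-0.61). The cause was not tested, and limma called fewer exons in each comparison, such as 24 against 90 in total knockdown. Exons of 57 nt in ENAH and 76 nt in EVL had no value with the lower of the inclusion junctions, since they fell outside the filter. Without the replicate block, gene values that reversed were ENAH in N-long (-0.00979) and VASP in total (0.0578) and N-long knockdown (0.0138), and the EVL 76 nt exon in total knockdown (0.20). Without that block the partner genes called in total knockdown went to 0 higher and 0 lower and in total against N-long to 0 lower, and the ENAH junctions called higher in N-long and in N-long against N-short knockdown to 0. Over all genes that fit called 62 instead of 303 in total knockdown. With untreated HUES66 as a control, EVL passed in total knockdown (-0.19), lower partner genes there numbered 2, and the EVL 63 nt exon reversed in N-long knockdown (0.18). With no filter, EVL in N-long against N-short knockdown reversed (0.000756). With a minimum of 10 reads 1 EVL junction rose between 96 and 48 hr. With TMM factors over 19 libraries the ENAH ratio was 0.753 for HUES66 to HEK293 and 2.69 for HEK293 to A375. Leaving out a library in turn, values that did not pass changed sign: ENAH reads in total (-0.0359 to 0.00636), N-short (-0.0418 to 0.00301) and N-long knockdown (-0.0156 to 0.0240) and total against N-long (-0.0382 to 0.00867); EVL reads in N-long against N-short (-0.0470 to 0.0383); VASP reads in total (-0.0597 to 0.0398) and N-long knockdown (-0.0531 to 0.0261) and total against N-long (-0.0322 to 0.0391); RBFOX2 in N-short knockdown (-0.11 to 0.00247) and 96 against 48 hr (-0.11 to 0.0187); ESRP1 in N-long knockdown (-0.0151 to 0.0358) and total against N-long (-0.0648 to 0.00237); ESRP2 in N-long against N-short (-0.0168 to 0.0684). The same held for the 57 nt exon of ENAH in N-long against N-short (-0.21 to 0.25) and total against N-long (-0.0521 to 0.41), the 76 nt exon of EVL in total (-1.02 to 0.48), N-short (-0.28 to 0.65) and N-long knockdown (-1.32 to 0.0117) and total against N-long (-0.42 to 0.87), and the 63 nt exon of EVL in N-long knockdown (-0.81 to 0.99). Partner genes called ran from 0 to 2 higher and 0 to 1 lower in total knockdown and 0 to 2 lower in total against N-long. RLE factors changed no call or direction in 115 values, and DESeq2 changed 2 of 79, RBFOX2 in N-long knockdown (adjusted p = 0.0683) and N-long against N-short (0.0665). Few reads lie behind the EVL exons, with 26 inclusion reads for the 76 nt and 24 skipping reads for the 63 nt exon in 14 libraries.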
